A study of Mus musculus with 16 samples.

Results

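Expression of 10 genes of the epidermal growth factor (EGF) family was examined in mouse keratinocytes with and without integrin α3β1, treated with laminin-332 (LN332) or with vehicle. They were chosen by name, as 6 ligands (*Areg*, *Ereg*, *Hbegf*, *Tgfa*, *Epgn* and *Btc*), 3 receptors (*Egfr*, *Erbb2* and *Erbb3*) and *Lrig1*, a transmembrane protein that restrains the receptors. All 10 were among the 14474 genes of the count table. MKα3- cells are an immortalized keratinocyte line of alpha3 integrin-null genotype, without the α3 subunit, and MKα3+ cells are MKα3- cells in which human α3 was put back. Both were grown in low-calcium medium on collagen, so a collagen substrate was present in every group. Plated cells of each line received 0.02 mg/mL LN332 or the same volume of its vehicle (PBS with glycine and sodium azide) for between 16 and 24 h, and poly(A) RNA was sequenced with 4 replicates in each of the 4 groups. Each genotype was represented by a single cell line, so the absence of α3 and any other difference between the lines cannot be told apart. The labels do not say that the replicates came from separate cultures, and p-values then measure only the spread between these samples.

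EGF family ligands are made as membrane-anchored precursors, released at the cell surface by metalloproteases of the ADAM family, and bound by receptors on the same or on neighbouring cells. EGFR binds amphiregulin, TGF-α and EGF, and both EGFR and ERBB4 bind epiregulin, HB-EGF and betacellulin. ERBB2 has no known ligand of its own and acts as a partner of the others, while ERBB3 binds neuregulins and signals through its partners because its own kinase is weak. In the epidermis the ligands made by keratinocytes act on the keratinocytes themselves and are known for driving their proliferation and their migration over wounds, and LN332 is the basement membrane ligand of integrin α3β1.

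Total counts per library lay between 21735708 and 29338370. The shallowest library was replicate 4 of the LN332-treated MKα3- cells, and replicate 1 of the same group held the largest shares of 45S ribosomal RNA (*Rn45s*, 1.42% of counts) and of mitochondrial transcripts (2.64%). The lines were separated by the first principal component (56.2% of the variance). The targeted gene, *Itga3*, was counted in all 16 libraries at between 211 and 317 CPM (counts scaled to library size), with a log2 fold change of 0.09 between the lines in vehicle (limma-voom adjusted p = 0.694), so its count does not tell the lines apart. All 8 keratinocyte markers were present, at summed levels between 9502 and 21139 CPM, whereas the summed fibroblast, melanocyte, immune and endothelial markers did not exceed 121 CPM in any library. The melanocyte genes *Tyr*, *Tyrp1*, *Dct*, *Mlana* and *Sox10*, the fibroblast genes *Dcn*, *Lum* and *Thy1* and the T cell gene *Cd3e* were not analysed here.

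Of the 6 ligand genes, 4 lie together on mouse chromosome 5 (mm10). *Epgn* (5:91027517-91035212), *Ereg* (5:91074617-91093649) and *Areg* (5:91139599-91148432) are on the plus strand and *Btc* (5:91357261-91402994) is on the minus strand, all within 375.5 kb. Of these neighbours *Epgn* had a lower and *Btc* a higher mean in MKα3+ cells. *Ereg* was called lower in vehicle, and *Areg* passed in neither comparison of the lines. For *Areg*, *Epgn* and *Btc*, the windows given for this cluster, the RefSeq sequence of the 250 bases before the start is shown, 5′ to 3′ on the strand of the gene (GRCm38.p6). Capitals mark the cyclic AMP response element (CRE) letters TGACGTCA. The *Areg* window is chr5:91139349-91139598 (plus strand), the *Epgn* window chr5:91027267-91027516 (plus strand) and the *Btc* window chr5:91402995-91403244 (minus strand).
Areg: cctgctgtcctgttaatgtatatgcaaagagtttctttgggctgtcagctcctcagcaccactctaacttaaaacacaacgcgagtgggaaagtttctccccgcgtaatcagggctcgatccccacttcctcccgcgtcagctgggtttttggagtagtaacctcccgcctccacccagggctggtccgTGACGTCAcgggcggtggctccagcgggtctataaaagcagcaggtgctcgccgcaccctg
Epgn: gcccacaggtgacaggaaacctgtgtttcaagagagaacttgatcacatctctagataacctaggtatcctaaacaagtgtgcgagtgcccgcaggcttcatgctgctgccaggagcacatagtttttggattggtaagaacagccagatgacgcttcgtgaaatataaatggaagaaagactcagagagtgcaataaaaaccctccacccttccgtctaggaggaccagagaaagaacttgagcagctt
Btc: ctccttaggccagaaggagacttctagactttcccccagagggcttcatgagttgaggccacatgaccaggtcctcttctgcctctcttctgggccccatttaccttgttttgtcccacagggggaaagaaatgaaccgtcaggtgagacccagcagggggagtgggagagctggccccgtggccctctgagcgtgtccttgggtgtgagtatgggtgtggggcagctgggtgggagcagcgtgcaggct
Windows were given for 7 of the 10 genes (*Areg*, *Epgn*, *Btc*, *Tgfa*, *Egfr*, *Erbb2* and *Lrig1*). They were searched on both strands for the CRE, for the AP-1 letters TGANTCA and for the TEAD letters GGAATG, and no member's window held matches to more than 1 of them. The CRE letters were found in *Areg*, beginning 61 bases before its start, and in 1.55% of all 32851 windows of this length. The TEAD letters were found in *Erbb2*, beginning 88 bases before its start, and in 12.6% of all windows, and the AP-1 letters in 0 of the 7 and in 6.75% of all windows. A match describes the letters only and says nothing of binding.

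**Figure D1:**
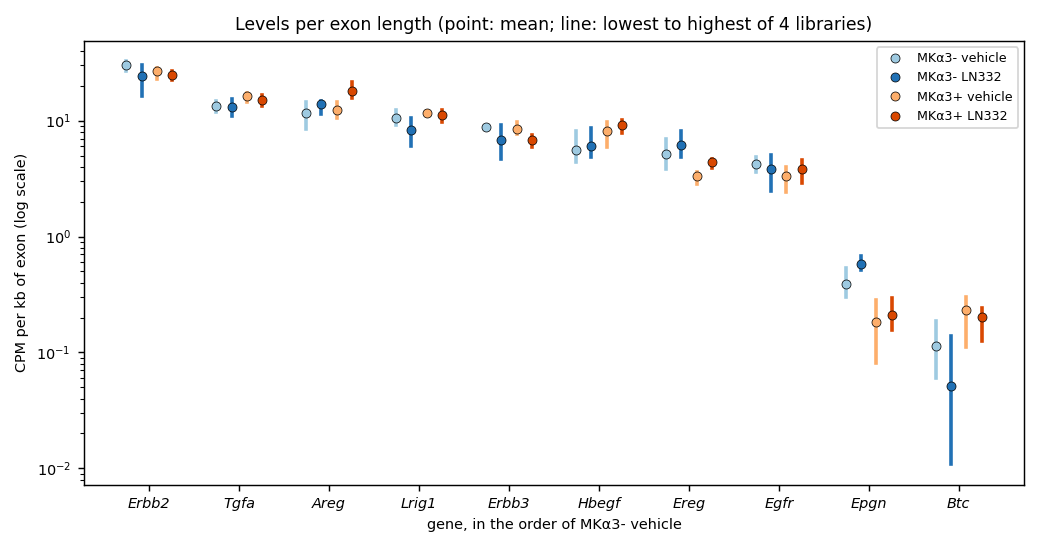
CPM per kb of exon (log scale) of the 10 genes in the 4 groups, as the mean (point) and the lowest to highest of 4 libraries (line). *Erbb2* was highest in every group, at means between 24.3 and 30.1 CPM per kb, and *Epgn* and *Btc* were lowest.

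Levels of different genes were compared per kb of exon. *Erbb2* had the highest level in each group, with means of 30.1 and 24.3 CPM per kb in MKα3- cells (vehicle and LN332) and of 27.0 and 24.6 CPM per kb in MKα3+ cells, and its 4 libraries overlapped no other member's in any group. *Tgfa* and *Areg* followed, at between 11.7 and 17.9 CPM per kb, and their ranges overlapped each other except in vehicle-treated MKα3+ cells, where *Tgfa* was above *Areg*. *Lrig1* came next by its means, at between 8.37 and 11.7 CPM per kb, and its range overlapped that of *Areg* in vehicle in both lines. Then came *Erbb3* and *Hbegf*, which overlapped in MKα3+ cells in vehicle and not in LN332. In LN332 *Lrig1* overlapped *Erbb3* in MKα3- and *Hbegf* in MKα3+ cells, and *Hbegf* overlapped *Ereg* in vehicle-treated MKα3- cells. *Ereg* and *Egfr* lay between 3.31 and 6.10 CPM per kb, with overlapping ranges in every group, and in LN332-treated MKα3- cells *Ereg* was level with *Hbegf*, with overlapping ranges. *Epgn* and *Btc* were lowest, at or under 0.579 CPM per kb. In MKα3- cells *Epgn* was above *Btc* without overlap in both treatments, and in MKα3+ cells their ranges overlapped in both. The remaining receptor of the family, *Erbb4*, was not analysed here.

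*Epgn* and *Btc* rested on between 4 and 30 and between 1 and 34 counts per library. *Epgn* exceeded 0.5 CPM in all 8 MKα3- libraries and in 2 of 8 MKα3+ libraries, and *Btc* in 3 MKα3- and all 8 MKα3+ libraries, whereas the other 8 members exceeded it in all 16. Every gene of the table exceeded 0.5 CPM in at least 6 libraries, so *Epgn* and *Btc* stood in it through the line in which they were higher. Their differences between the lines are therefore given as values. Their calls are printed with those of the other members but are not taken as support.

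**Figure D2:**
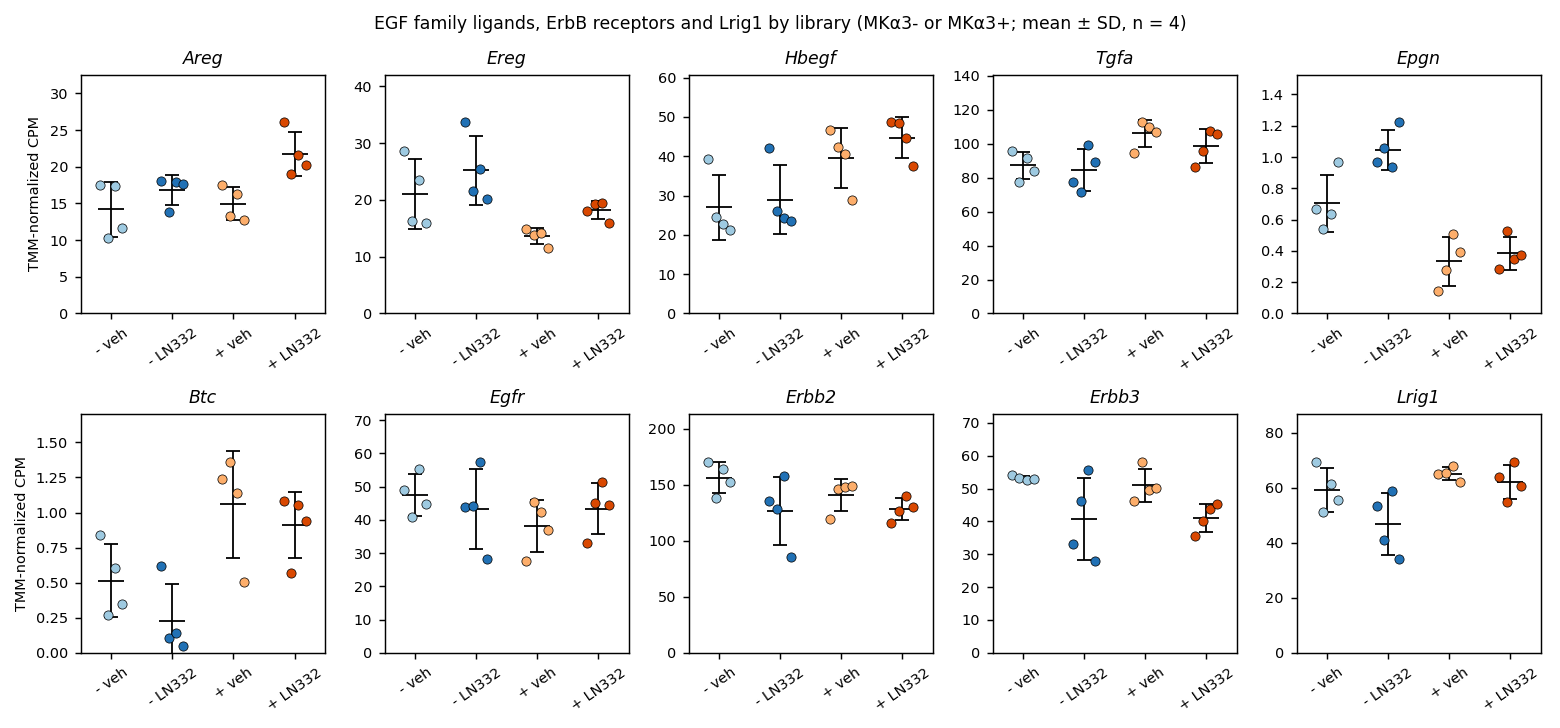
TMM-normalized CPM of the 10 genes in every library (points, replicates 1 to 4 from left to right), with mean and SD (n = 4), for MKα3- (-) and MKα3+ (+) cells in vehicle (veh) or LN332. *Epgn* did not overlap between the lines. Without overlap, 15.7% of all genes were lower in MKα3+ cells in vehicle and 12.9% in LN332. In MKα3+ cells *Areg* was at 19.1 to 26.1 CPM in LN332 and 12.7 to 17.5 CPM in vehicle. There 9.66% of all genes did not overlap, and *Areg* was not called in the fit of the 16 libraries without a block.

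The comparison of MKα3+ with MKα3- cells in vehicle asks which genes depend on α3β1 without added LN332. Ligands differed between the lines in both directions. *Hbegf* was 1.49-fold higher in MKα3+ cells, *Ereg* stood at 0.665 of its level in MKα3- cells, and no receptor passed the test. *Epgn* stood at 0.455 of its level in MKα3- cells, a value given with the limit stated above. A gene was called at an adjusted p under 0.05 (limma-voom, Benjamini-Hochberg over all genes) and an absolute log2 fold change over 0.5. Of the 10 members, 3 were called, against 18.5% of all genes; 1 was higher (10.9% of all genes) and 2 were lower (7.56%). Apart from *Epgn* and *Btc*, 2 of the other 8 were called. The median log2 fold change was 0.02 over the members and 0.01 over all genes, and the median absolute value was 0.31 and 0.26. In these bulk libraries a lower level in each cell and fewer cells with the transcript cannot be told apart.

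*Hbegf* encodes heparin-binding EGF-like growth factor, a ligand released from keratinocytes at wound edges. Replicates 1 to 4 had 39.3, 24.5, 22.8 and 21.2 CPM in vehicle-treated MKα3- cells and 46.7, 42.3, 40.5 and 28.8 CPM in vehicle-treated MKα3+ cells. The groups overlapped because MKα3- replicate 1 lay above MKα3+ replicate 4, although every MKα3+ replicate was above the MKα3- replicate of the same number. The log2 fold change was 0.57 (SE 0.20, limma-voom adjusted p = 0.0424), and edgeR's quasi-likelihood test did not call it (adjusted p = 0.0582). The call was also lost without any one of 9 libraries (adjusted p between 0.0535 and 0.121, limma-voom): replicates 2, 3 and 4 of the vehicle-treated and 2 of the LN332-treated MKα3- cells, and replicates 1, 2 and 3 of the vehicle-treated and 2 and 3 of the LN332-treated MKα3+ cells.

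*Ereg* encodes epiregulin, an autocrine growth factor of keratinocytes. It stood at 28.6, 16.3, 23.6 and 15.9 CPM in vehicle-treated MKα3- cells and at 14.8, 13.9, 14.3 and 11.6 CPM in vehicle-treated MKα3+ cells. All 4 MKα3+ libraries were below all 4 MKα3- libraries, by little in 2 of the latter, and 15.7% of all genes were lower in MKα3+ cells without overlap. The log2 fold change was -0.59 (SE 0.19, limma-voom adjusted p = 0.0306). The call was lost without vehicle replicate 1 or 3 of the MKα3- cells, or 2, 3 or 4 of the MKα3+ cells (adjusted p between 0.0542 and 0.1, limma-voom). *Ereg* shares 141 exon bases with *Gm19610* on the opposite strand, and since the methods name no strand setting, reads of the pair cannot be told apart there.

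*Epgn* encodes epigen, a low-affinity ligand of EGFR. Its levels were 0.667, 0.543, 0.638 and 0.967 CPM in vehicle-treated MKα3- cells and 0.146, 0.281, 0.509 and 0.396 CPM in vehicle-treated MKα3+ cells. The groups did not overlap, and 15.7% of all genes were lower in MKα3+ cells without overlap. The log2 fold change was -1.14 (SE 0.37, limma-voom adjusted p = 0.0277). Summed over libraries the counts were 35 against 81, a ratio after division by total counts of 0.466, with an exact binomial 95% interval of 0.304 to 0.701, which covers counting error only. The call was lost without vehicle replicate 4 of the MKα3- cells, or 1 or 2 of the MKα3+ cells (adjusted p between 0.0661 and 0.106, limma-voom).

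*Btc*, the gene of betacellulin, had 0.842, 0.271, 0.602 and 0.345 CPM in vehicle-treated MKα3- cells and 1.24, 1.36, 1.14 and 0.504 CPM in vehicle-treated MKα3+ cells. Of the MKα3+ libraries 3 lay above all MKα3- libraries and replicate 4 lay among them. The log2 fold change of 1.05 (SE 0.47, limma-voom adjusted p = 0.104) did not pass the test, but did without MKα3+ replicate 4 (1.38, limma-voom adjusted p = 0.0334). *Tgfa*, the gene of TGF-α, an autocrine EGFR ligand of epidermis, was at 87.4 ± 8.06 CPM (SD, n = 4) in MKα3- and 106 ± 7.88 CPM in MKα3+ cells (log2 fold change 0.28, SE 0.11, limma-voom adjusted p = 0.0619). *Areg*, the gene of amphiregulin, was at 14.2 ± 3.76 and 15.0 ± 2.29 CPM (log2 fold change 0.11, 95% interval -0.26 to 0.48).

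None of the receptors passed the test between the lines in vehicle. *Egfr* stood at 47.5 ± 6.23 CPM (SD, n = 4) in MKα3- and 38.0 ± 7.83 CPM in MKα3+ cells, and its 95% interval of the log2 fold change ran from -0.74 to 0.07. *Erbb2* had an interval of -0.46 to 0.15 and *Erbb3* one of -0.39 to 0.26. *Erbb3* varied least, between 52.5 and 54.1 CPM in vehicle-treated MKα3- cells. *Lrig1* had a log2 fold change of 0.14, with an interval of -0.15 to 0.44.

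**Figure D3:**
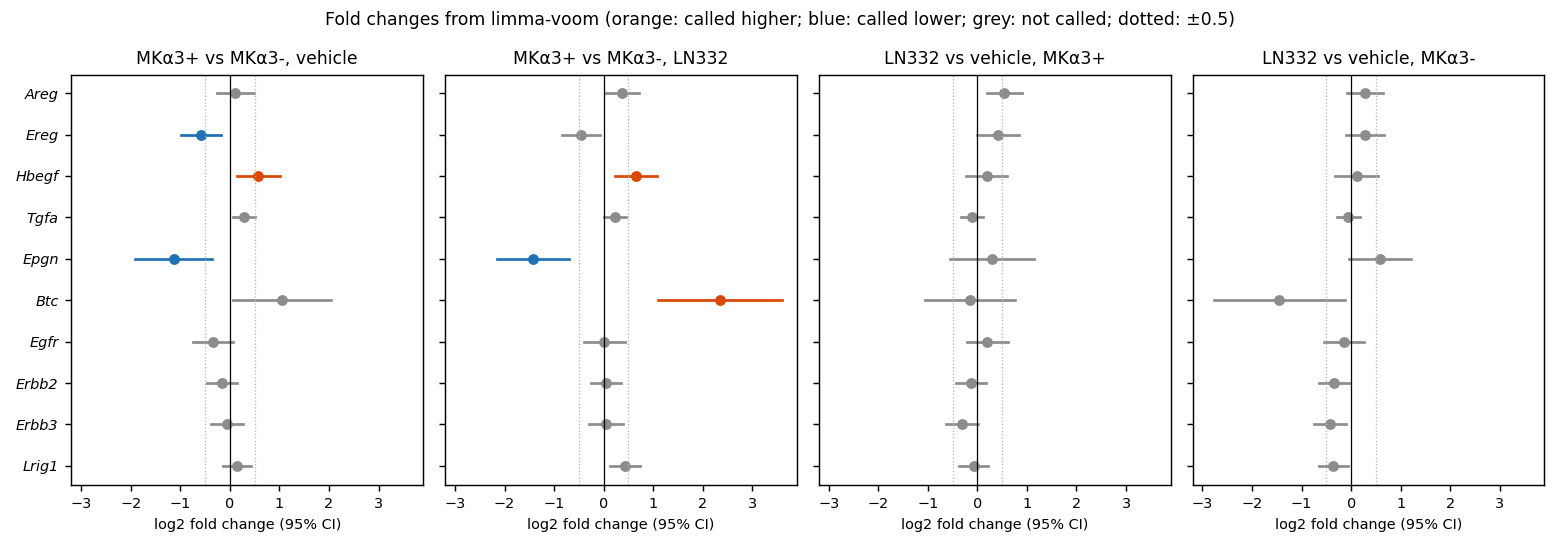
Log2 fold changes with 95% intervals from limma-voom for the 10 genes in 4 comparisons; orange marks genes called higher, blue genes called lower, grey genes not called, and dotted lines a log2 fold change of ±0.5. *Hbegf* was called in both comparisons of the lines. *Epgn* (both) and *Btc* (LN332) are coloured too, but stood in the table through the line in which they were higher. With LN332, 0 of the 10 genes were called in either line.

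The same comparison in LN332 asks which differences between the lines stand in treated cells. It shares no library with the comparison in vehicle. It does share the lines, the fit and the replicate numbers, so it is not an independent repeat. *Hbegf* was called in both comparisons and was 1.58-fold higher in MKα3+ cells in LN332. *Epgn*, called in both, was 2.68-fold lower, and *Btc* was called at 5.11-fold higher in the fit. The limit given above for *Epgn* and *Btc* applies to these calls. Of the 10 members, 3 were called, against 20.6% of all genes, 2 higher (11.7% of all genes) and 1 lower (8.92%). Apart from *Epgn* and *Btc*, 1 of the other 8 was called. The median log2 fold change was 0.14 over the members and 0.01 over all genes, and the median absolute value was 0.40 and 0.29.

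*Hbegf* had 42.0, 26.1, 24.3 and 23.5 CPM in LN332-treated MKα3- cells and 48.6, 48.3, 44.6 and 37.5 CPM in LN332-treated MKα3+ cells. Replicate 1 of the MKα3- cells again lay above the lowest MKα3+ library, and the other libraries of its group lay between 23.5 and 26.1 CPM. The log2 fold change was 0.66 (SE 0.20, limma-voom adjusted p = 0.0195), and the call was lost without replicate 2, 3 or 4 of the MKα3- or 2 of the MKα3+ cells in LN332 (adjusted p between 0.0528 and 0.0599, limma-voom). *Epgn* had 0.970, 1.06, 0.933 and 1.22 CPM in LN332-treated MKα3- cells against 0.281, 0.528, 0.350 and 0.375 CPM in MKα3+ cells. The groups did not overlap, and 12.9% of all genes were lower in MKα3+ cells without overlap. The log2 fold change was -1.42 (SE 0.34, limma-voom adjusted p = 0.00424). The counts of 39 against 106 gave a ratio after division by total counts of 0.366 (exact binomial 95% interval 0.247 to 0.532).

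*Btc* had 0.621, 0.106, 0.144 and 0.0489 CPM in LN332-treated MKα3- cells and 1.08, 0.568, 1.05 and 0.937 CPM in LN332-treated MKα3+ cells. Replicate 1 of the MKα3- cells was above the lowest MKα3+ library and the other 3 were at or under 0.144 CPM, 1 of them resting on a single count. The log2 fold change was 2.35 (SE 0.60, limma-voom adjusted p = 0.00596), and the summed counts of 93 against 24 gave a smaller ratio, 3.85 after division by total counts (exact binomial 95% interval 2.44 to 6.31).

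*Areg* and *Ereg* did not overlap between the lines in LN332, in opposite directions, and neither passed the test. *Areg* was at 18.1, 13.8, 17.9 and 17.7 CPM in MKα3- cells and at 26.1, 19.1, 21.6 and 20.3 CPM in MKα3+ cells (log2 fold change 0.37, SE 0.17, limma-voom adjusted p = 0.0991). *Ereg* was at 33.7, 21.5, 25.5 and 20.1 CPM in MKα3- cells and between 16.0 and 19.4 CPM in MKα3+ cells (log2 fold change -0.45, SE 0.18, limma-voom adjusted p = 0.0696), and was called lower without MKα3- replicate 4 (-0.55, limma-voom adjusted p = 0.041). Without overlap, 13.6% of all genes were higher and 12.9% were lower in MKα3+ cells. *Lrig1* had an adjusted p of 0.0272 in limma-voom, with a log2 fold change of 0.43 (SE 0.14), which is under the fold threshold and reached 0.54 without MKα3- replicate 3 (limma-voom adjusted p = 0.0069). *Tgfa* had a log2 fold change of 0.23 (limma-voom adjusted p = 0.115). The receptors *Egfr*, *Erbb2* and *Erbb3* had log2 fold changes of 0.02, 0.05 and 0.05, with 95% intervals within -0.39 and 0.42.

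**Figure D4:**
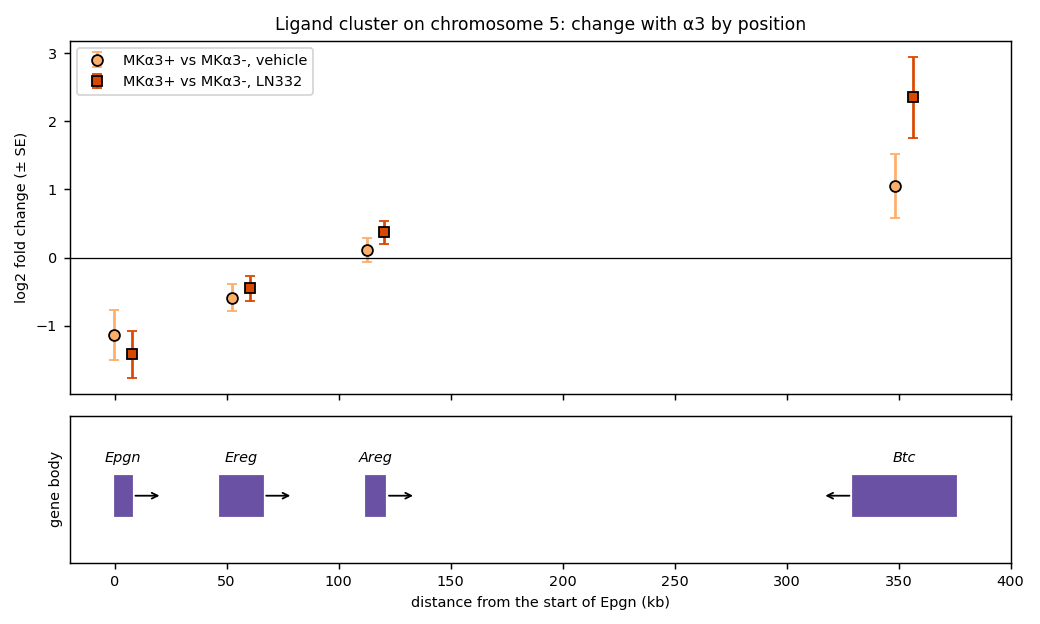
Log2 fold change of MKα3+ against MKα3- cells (± SE) for the 4 ligand genes of chromosome 5 in vehicle and in LN332, placed by distance from the start of *Epgn* (kb), with the gene bodies and their direction of transcription underneath. *Epgn* and *Ereg* had negative values and *Areg* and *Btc* positive values in both treatments. *Ereg* passed the test in vehicle. *Epgn* (both) and *Btc* (LN332) passed too, but stood in the table through the line in which they were higher.

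Along the chromosome 5 cluster the differences between the lines followed no common direction. *Epgn* and *Ereg*, 39.4 kb apart, had log2 fold changes of -1.14 and -0.59 in vehicle, *Areg*, 46.0 kb further, had 0.11, and *Btc*, another 208.8 kb away, had 1.05. The median log2 fold change of the 78 genes around them (a window of 20 Mb) was 0.21 in vehicle for *Areg*, *Ereg* and *Epgn* and 0.20 for *Btc*. Relative to it *Epgn* stood at -1.35, *Ereg* at -0.80, *Areg* at -0.10 and *Btc* at 0.85 in vehicle. The count of *Areg* divided by the count of *Ereg*, which does not depend on library size, ranged from 0.612 to 0.735 for MKα3- and from 0.962 to 1.18 for MKα3+ cells in vehicle. In LN332 it ranged from 0.537 to 0.881 and from 0.987 to 1.45, so all 8 MKα3+ libraries were above all 8 MKα3- libraries. This ratio was chosen after the values had been seen and is a description.

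Markers also moved with the lines, between which 18.5% of all genes were called in vehicle and 20.6% in LN332. The summed level of 5 simple epithelial markers was between 2216 and 3528 CPM in MKα3- cells and between 4421 and 5915 CPM in MKα3+ cells, with *Krt7*, *Krt8* and *Krt19* of the 5 called higher in both treatments. Of the 8 keratinocyte markers, *Perp* was called lower in MKα3+ cells in vehicle and *Krt5*, *Trp63* and *Perp* in LN332, and 0 were called higher in either. Others had higher means in MKα3+ cells without passing, such as *Krt14* at 5802 against 4231 CPM in vehicle and 7343 against 6086 CPM in LN332. Of the 4 differentiated keratinocyte markers measured, *Krt10* and *Ivl* were called lower in LN332 and 0 in vehicle, and of the 2 melanocyte markers measured *Pmel* was called lower in both. Of the immune markers *Csf1r* was called higher in MKα3+ cells in both treatments, the 4 measured summing to between 30.5 and 58.2 CPM in MKα3- and between 42.1 and 121 CPM in MKα3+ cells. Their part in the ligand differences was not tested.

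Treatment of MKα3+ cells with LN332 asks which genes respond to the laminin in cells that have integrin α3β1. This comparison shares the vehicle and the LN332 libraries of MKα3+ cells with the comparisons of the lines. *Areg* was 1.45-fold higher in LN332-treated than in vehicle-treated MKα3+ cells, and it was called under some alternatives and not in the fit of the 16 libraries without a block. In that fit 0 of the 10 members were called by limma-voom, as by edgeR or DESeq2, and 0.187% of all genes were called. In limma-voom 1 member had an unadjusted p under 0.05, as did 1388 of the 14474 genes. The median log2 fold change was 0.06 over the members and -0.01 over all genes, and the median absolute value was 0.20 and 0.12.

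*Areg* had 17.5, 13.4, 16.3 and 12.7 CPM in vehicle-treated MKα3+ cells and 26.1, 19.1, 21.6 and 20.3 CPM in LN332-treated MKα3+ cells. All 4 treated libraries were above all 4 vehicle libraries, as for 9.66% of all genes in either direction, and *Areg* rose in 4 of 4 pairs of the same replicate number. The log2 fold change was 0.54 (SE 0.17, limma-voom adjusted p = 0.217). In this comparison the replicate numbers were taken to pair the libraries, which the labels do not state. With the replicate number as a block *Areg* was called higher (log2 fold change 0.54, SE 0.10, limma-voom adjusted p = 0.0107), with 1.51% of all genes called. It was also called with sample quality weights and no block (limma-voom adjusted p = 0.0111). With only the MKα3+ libraries and the block, a fit added after the data were seen, its adjusted p was 0.000263 in limma-voom, and 3.63% of all genes were called. In that fit *Ereg*, *Erbb3* and *Hbegf* had limma-voom adjusted p-values of 0.00217, 0.0099 and 0.0422. Their log2 fold changes of 0.41, -0.31 and 0.18 were under the fold threshold, so they were not called. There 4880 of 14200 genes had an unadjusted p under 0.05 (limma-voom).

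*Ereg* was also above its vehicle level in 4 of 4 pairs, at 18.2 ± 1.60 against 13.6 ± 1.41 CPM (SD, n = 4). The groups did not overlap, as for 9.66% of all genes in either direction. The log2 fold change of *Ereg* was 0.41 (SE 0.20, limma-voom adjusted p = 0.528), and with the block the limma-voom adjusted p was 0.0901. *Hbegf* was higher in 4 of 4 pairs, with a log2 fold change of 0.19 and a 95% interval of -0.22 to 0.61, while *Tgfa* was lower in 4 of 4 pairs, at -0.11 with an interval of -0.34 to 0.12. *Epgn* and *Btc* had log2 fold changes of 0.29 and -0.15 with wide 95% intervals, of -0.55 to 1.14 and -1.05 to 0.75.

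*Erbb3* was lower in LN332 in 4 of 4 pairs of MKα3+ cells. It had 46.2, 58.2, 49.4 and 50.0 CPM in vehicle and 35.6, 40.1, 43.7 and 45.3 CPM in LN332. The groups did not overlap, as for 9.66% of all genes in either direction. The log2 fold change of -0.31 (SE 0.16, limma-voom adjusted p = 0.568) did not pass the test, nor did it with the block (limma-voom adjusted p = 0.285). *Erbb2* was lower in 4 of 4 pairs and had a log2 fold change of -0.13, with a 95% interval of -0.44 to 0.17. *Egfr* and *Lrig1* had log2 fold changes of 0.20 and -0.07, with intervals of -0.21 to 0.61 and -0.37 to 0.22.

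In MKα3- cells, LN332 gave the background of cells without α3β1. There 0 of the 10 members were called by limma-voom, edgeR or DESeq2, and 0.304% of all genes were called. In limma-voom 4 members had an unadjusted p under 0.05 (*Btc*, *Erbb2*, *Erbb3* and *Lrig1*), as did 2023 of the 14474 genes. The median log2 fold change was -0.10 over the members and -0.01 over all genes, and the median absolute value was 0.31 and 0.15. *Areg* and *Ereg* each had a log2 fold change of 0.28 (adjusted p = 0.503 and 0.512, limma-voom) and were higher in 4 of 4 pairs of the same number, with overlapping groups.

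Levels of the receptors and of *Lrig1* in LN332-treated MKα3- cells were lowest in replicate 4. *Erbb3* stood at 54.1, 53.3, 52.5 and 52.9 CPM in vehicle and at 33.2, 46.2, 55.7 and 27.9 CPM in LN332, so that the treated libraries spread to both sides of the vehicle libraries. Its log2 fold change was -0.43 (SE 0.16, limma-voom adjusted p = 0.238), and among the alternatives run it was called lower only when LN332 replicate 3 was left out (-0.59, limma-voom adjusted p = 0.0479). *Erbb2* stood at 171, 139, 164 and 153 CPM in vehicle and at 135, 129, 158 and 85.3 CPM in LN332, with a log2 fold change of -0.34 (SE 0.14, limma-voom adjusted p = 0.313). *Lrig1* stood at 69.5, 51.1, 61.2 and 55.4 CPM in vehicle and at 53.3, 41.0, 58.9 and 33.9 CPM in LN332, with a log2 fold change of -0.36 (SE 0.14, limma-voom adjusted p = 0.272). *Egfr* was also lowest in replicate 4, at 28.1 CPM against at least 43.9 CPM in the other treated libraries. Replicate 4 was the shallowest library, and replicate 1, next lowest for *Erbb3*, was the one with most ribosomal and mitochondrial counts. Without both of them, in an alternative added after the data were seen, the log2 fold change was -0.08 for *Erbb3*, -0.14 for *Erbb2*, -0.27 for *Lrig1* and 0.08 for *Egfr*. For *Erbb3* they were the lowest treated libraries, so a smaller fall follows from leaving them out. For *Erbb2*, *Lrig1* and *Egfr* replicate 4 was the lowest, so leaving it out likewise raises the treated mean. The part of depth or of ribosomal share was not tested. *Btc* was lower in 4 of 4 pairs, with 24 counts in LN332 against 59 in vehicle and a log2 fold change of -1.45 (SE 0.63, limma-voom adjusted p = 0.317), and *Epgn* was higher in 4 of 4 pairs, with a log2 fold change of 0.58 (SE 0.30, limma-voom adjusted p = 0.404).

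Whether the response to LN332 differed between the lines was tested as an interaction. Of the 10 members, 0 were called by limma-voom, edgeR or DESeq2, and 0% of all genes were called. In limma-voom 0 members had an unadjusted p under 0.05, against 164 of the 14474 genes. The difference in response was 0.26 on the log2 scale for *Areg* (95% interval -0.25 to 0.77) and 0.13 for *Ereg* (95% interval -0.43 to 0.70). It was 0.12 for *Erbb3* (95% interval -0.35 to 0.58), and the adjusted p-values of all 10 members were 1 in limma-voom. The intervals include differences as large as the responses themselves, so the calls of *Areg* under these alternatives in MKα3+ cells does not show a response particular to them. Averaged over the lines, 0 members were called by limma-voom, edgeR or DESeq2, against 1.35% of all genes. In limma-voom 6 members had an unadjusted p under 0.05, as did 2859 of the 14474 genes. The smallest adjusted p was that of *Areg*, with a log2 fold change of 0.41 (SE 0.12, limma-voom adjusted p = 0.0632), and *Erbb3* had -0.37 (SE 0.11, limma-voom adjusted p = 0.0671). Once the block was added, limma-voom adjusted p-values were 0.00236 for *Areg*, 0.017 for *Ereg* and 0.0249 for *Erbb3*. Their averaged log2 fold changes of 0.40, 0.34 and -0.36 were under the fold threshold, so they were not called. That fit called 2.51% of all genes. It also pairs the MKα3- libraries, where not every pair of the same number correlated at over 0.1.

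**Figure D5:**
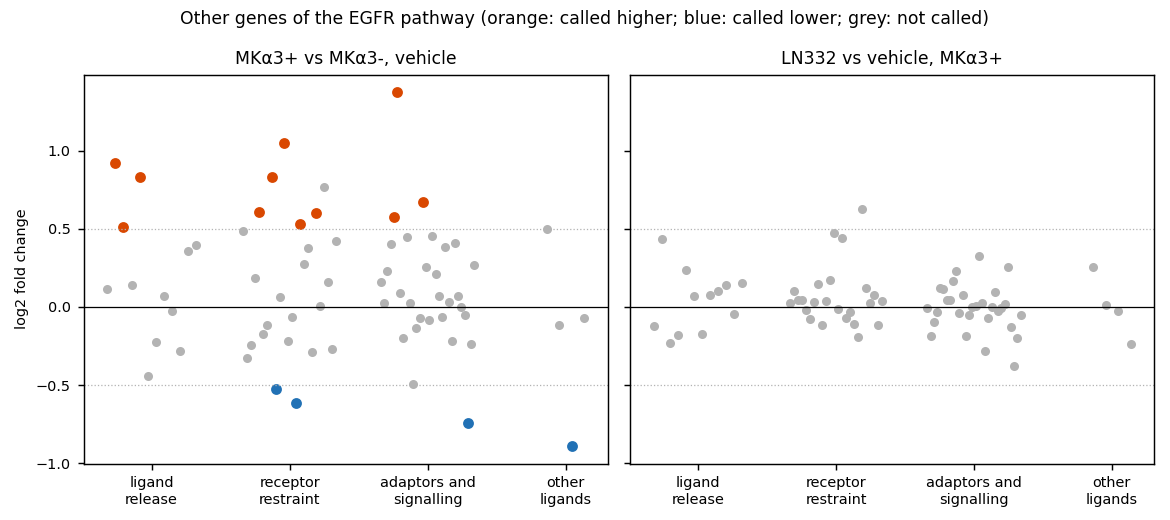
Log2 fold changes of the other measured genes of the EGFR pathway, by list, for MKα3+ against MKα3- cells in vehicle (left) and for LN332 against vehicle in MKα3+ cells (right); orange marks genes called higher and blue genes called lower. Between the lines 11 were called higher and 4 lower, and with LN332 in MKα3+ cells 0 were called.

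Around the ligands and receptors, 73 other genes of the pathway were listed and 70 were measured. Between the lines in vehicle 15 were called (21.4%, against 18.5% of all genes), of which MKα3+ cells had 11 at a higher and 4 at a lower level. In LN332 17 were called (24.3%, against 20.6%), 13 at a higher and 4 at a lower level. With LN332, 0 of the 70 were called by limma-voom, edgeR or DESeq2 in either line. In MKα3+ cells 8 of the 70 had an unadjusted p under 0.05 (limma-voom), as did 1388 of the 14474 genes. In MKα3- cells 9 of the 70 did, and 2023 of the 14474 genes.

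For 12 genes of ligand release the median log2 fold change was 0.13 in vehicle and 0.23 in LN332, against 0.01 over all genes. Of the 12, 0 were called lower in vehicle (7.56% of all genes) or in LN332 (8.92%). In MKα3+ cells 3 were called higher in vehicle (10.9% of all genes) and the same number in LN332 (11.7%). They were the metalloproteases *Adam9*, at 129 ± 16.7 CPM (SD, n = 4) in MKα3- and 229 ± 20.6 CPM in MKα3+ cells in vehicle (log2 fold change 0.83, SE 0.14, limma-voom adjusted p = 0.000193), *Adam12* (0.92, SE 0.25) and *Adam15* (0.51, SE 0.15). In LN332 their log2 fold changes were 1.05, 0.85 and 0.68. *Adam15* shares 1263 exon bases with a gene on the opposite strand and its value is uncertain. *Adam17* and *Adam10*, the main sheddases of the family, were not called in either comparison and are named here for their role, outside the rule, with log2 fold changes between 0.11 and 0.21.

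Of 24 genes that restrain the receptors or act in their turnover, 5 were called higher (10.9% of all genes) and 2 lower (7.56%) in vehicle. In LN332 6 were called higher (11.7% of all genes) and 2 lower (8.92%), and the median was 0.11 in both treatments. *Ptprj*, a receptor phosphatase, had log2 fold changes of 1.05 (SE 0.17) in vehicle and 1.21 (SE 0.17) in LN332, and *Lrig3*, a relative of *Lrig1*, 0.83 (SE 0.24) and 0.98 (SE 0.25). *Errfi1*, an inhibitor of the EGFR kinase that EGFR signalling induces, had 0.61 (SE 0.12) in vehicle and *Sh3kbp1*, an adaptor of receptor endocytosis, -0.62 (SE 0.18). The feedback inhibitors *Spry1* and *Spry4* had 1.29 (SE 0.22) and 1.07 (SE 0.39) in LN332, where *Spry1* shares 710 exon bases with a gene on the opposite strand. *Spry4* rested on 8 to 17 counts per library in LN332-treated MKα3- and 18 to 32 in LN332-treated MKα3+ cells. Its groups overlapped there (limma-voom adjusted p = 0.0441).

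Of 30 adaptors and proximal signalling genes, 3 were called higher (10.9% of all genes) and 1 lower (7.56%) in vehicle. In LN332 4 were called higher (11.7% of all genes) and 2 lower (8.92%). The median was 0.07 in vehicle and 0.06 in LN332. *Gab2*, a docking protein downstream of receptor kinases, had the largest value, at 17.2 ± 2.46 CPM (SD, n = 4) in MKα3- and 44.5 ± 3.39 CPM in MKα3+ cells in vehicle (log2 fold change 1.37, SE 0.12, limma-voom adjusted p = 2.3e-07), and 1.45 (SE 0.12) in LN332. *Nck1* (0.67, SE 0.10) and *Gab1* (0.58, SE 0.11 in vehicle; 0.78, SE 0.11 in LN332) were higher too, as was *Pik3cb*, a catalytic subunit of PI3-kinase, in LN332 (0.67, SE 0.11). *Stat5a* was lower in both, at -0.74 (SE 0.11) in vehicle and -0.71 (SE 0.11) in LN332. *Gab1* and *Stat5a* share exon bases with genes on the opposite strand. Of the 4 other EGF family ligands measured, *Nrg2*, a neuregulin bound by ERBB3 and ERBB4, was called lower in MKα3+ cells in vehicle (log2 fold change -0.89, SE 0.30, limma-voom adjusted p = 0.0321), and 0 were called in LN332.

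Genes with a pattern most like that of *Hbegf* and of *Epgn*, the members called with the largest rise and fall in vehicle, were found by the Euclidean distance between centred log2 CPM values over the 16 libraries among 11794 genes. For *Hbegf* the nearest were *Nek6* (distance 0.676), *Creb3* (0.726) and *Dnaja1* (0.737). For *Epgn* they were *Upk1b* (1.32), *Afap1l2* (1.32) and *Tigit* (1.35), and the low counts of *Epgn* enter its distances.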

How the data were processed

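Per the labels, reads were demultiplexed with bcl2fastq 2.20. The authors mapped them to mm10 (Rsubread), used featureCounts and its Entrez annotation for gene-level counts, and deposited these as raw counts of 14474 genes. The strand setting is not given in the sources used here. Every deposited gene exceeded 0.5 CPM in at least 6 libraries, so the study's filter (over 0.5 CPM in at least 3) removed 0 genes. Low counts limit *Epgn* and *Btc*, as given with their values. Between replicates, chi-square divided by its degrees of freedom was at least 5.45, so none agreed within sampling noise.

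TMM factors came from edgeR 4.0.16 and contrasts from limma-voom (limma 3.58.1, R 4.3.3), in a single fit of the 16 libraries with a coefficient per group and Benjamini-Hochberg adjustment over all genes. Calls needed an adjusted p-value under 0.05 together with a log2 fold change over 0.5 in either direction. CPM values are TMM-normalized. Levels per kb used exon lengths of the GENCODE annotation of GRCm38, which is mm10. The scripts were tested on simulated data with known changes. Alternatives tried: other tests (edgeR quasi-likelihood, DESeq2 1.42.0), other scaling in limma-voom (size factors of DESeq2, plain library size), other filters (none, at least 10 counts in every library), the replicate number as a block, weights for sample quality, a fit of the compared groups alone, minimum log2 fold changes of 0 and 1, removal of regional medians in the comparisons of the lines, and leaving out each library in turn. Of the 3 added after the data were seen, 1 left out replicates 1 and 4 of the LN332-treated MKα3- cells and 2 combined the block with edgeR or with the MKα3+ libraries alone.

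Replicate numbers come from the labels, and their pairing was checked by the correlation of deviations from the group means. In MKα3+ cells, vehicle against LN332, the 4 same-numbered pairs correlated at 0.620, 0.474, 0.202 and 0.580, all over 0.1, and the numbers were taken to pair the libraries. Vehicle replicate 3 correlated more with LN332 replicate 4 (0.358) than with its own number. In each of the other comparisons at least 1 pair did not exceed 0.1.

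The members, the pathway and marker lists and the tests were chosen with earlier results of these data known. The genes named are the members, at most 4 called genes per list and comparison with the largest absolute log2 fold change, and the 3 genes nearest to the members with the largest called rise and fall in vehicle.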

Additional observations from a re-analysis of the deposited data

Results flagged for a closer look

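Within groups of 4, the gap of the highest or lowest library to its neighbour was set against the range of the group (Dixon's test at the 95% level). Of 40 groups of members' values 4 had such a library, where chance gives about 2, and 3 of the 4 were in LN332-treated MKα3- cells. *Areg* in replicate 2 of that group was at 13.8 CPM, and the other replicates were between 17.7 and 18.1 CPM. *Hbegf* in replicate 1 was at 42.0 CPM, against 23.5 to 26.1 CPM in the others. *Btc* in replicate 1 was at 0.621 CPM, against 0.0489 to 0.144 CPM. In vehicle-treated MKα3+ cells *Erbb2* in replicate 1 was at 120 CPM, against 147 to 149 CPM in the others.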

How the results depend on the processing

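Without each library in turn, the number of members called between the lines in vehicle ranged from 0 to 3 (main value 3; 0 without replicate 2 and 1 without replicate 1 or 3 of vehicle-treated MKα3+ cells, and 1 without replicate 3 or 4 of vehicle-treated MKα3- cells), and in LN332 from 2 to 3. At a minimum log2 fold change of 1, 1 was called in vehicle (*Epgn*), where *Epgn* was lost with only the groups compared (limma-voom adjusted p = 0.0622) and *Hbegf* with library size alone (limma-voom adjusted p = 0.0569). With at least 10 counts in every library 1 was called in LN332 (*Hbegf*), since *Epgn* and *Btc* leave the table. With LN332 in MKα3+ cells 1 (*Areg*) was called with the replicate block, with sample quality weights (limma-voom adjusted p = 0.0111), with edgeR and the block (adjusted p = 0.0151) and with the MKα3+ libraries alone and the block. In MKα3- cells the range was 0 to 1, with *Erbb3* called without LN332 replicate 3.

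The replicate block moved the genes called with LN332 from 27 to 218 in MKα3+ cells and from 44 to 259 in MKα3- cells, and *Btc* was called in vehicle (0.97, limma-voom adjusted p = 0.0396); apart from this and *Areg* with LN332 in MKα3+ cells, it changed no call of a member. With the block *Hbegf* stayed called higher in MKα3+ cells in vehicle (limma-voom adjusted p = 0.000967) and in LN332 (limma-voom adjusted p = 0.000263). *Ereg* stayed called lower in vehicle (limma-voom adjusted p = 0.00115). Between the lines the block called 21.1% of all genes in vehicle and 23.4% in LN332, and the pairing was not taken as given there. Of the 16 libraries 14 correlated best with their own number.

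Signs turned in 40 of 1616 comparisons of a member's value with an alternative, none of a called value. With regional medians removed, *Areg* had -0.10 and *Erbb3* 0.28 in vehicle and *Egfr* -0.049 in LN332 between the lines. Without replicates 1 and 4 of LN332-treated MKα3- cells, the lines in LN332 differed by -0.23 in *Egfr*, -0.15 in *Erbb2* and -0.30 in *Erbb3*, the LN332 response in MKα3- cells was -0.062 in *Hbegf* and 0.084 in *Egfr*, and the interaction was -0.23 in *Erbb3*. With sample quality weights the lines in LN332 differed by -0.065 in *Erbb3*, and the interaction was 0.032 in *Tgfa* and -0.019 in *Erbb3*. *Egfr* had -0.00122 with edgeR and -0.00155 with DESeq2 between the lines in LN332, and -0.053 with library size alone in the average response. Without 1 library, ranges that crossed 0 were -0.034 to 0.22 (*Areg*) between the lines in vehicle, and -0.17 to 0.16 (*Egfr*), -0.13 to 0.16 (*Erbb2*) and -0.11 to 0.21 (*Erbb3*) in LN332. With LN332 they were -0.48 to 0.049 (*Btc*) and -0.040 to 0.53 (*Epgn*) in MKα3+ cells, -0.30 to 0.026 (*Egfr*), -0.089 to 0.31 (*Hbegf*) and -0.14 to 0.018 (*Tgfa*) in MKα3- cells, and -0.052 to 0.11 (*Egfr*) on average. In the interaction they were -0.037 to 0.28 (*Erbb3*), -0.028 to 0.29 (*Ereg*), -0.11 to 0.28 (*Hbegf*) and -0.13 to 0.029 (*Tgfa*). The causes were not tested.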

Other observations

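Across the 4 groups the same replicate number often held the extreme value of some ligands. How often this occurs over all genes was not counted. *Areg* and *Hbegf* were highest in replicate 1 in 4 of 4 groups, and *Ereg* and *Btc* in 3 of 4. *Ereg* and *Hbegf* were lowest in replicate 4 in 4 of 4 groups. *Tgfa* and *Epgn* were less regular, the first highest in replicate 3 and the second in replicate 4 in only 2 of 4 groups. Among the receptors, *Egfr* was highest in replicate 3 in 3 of 4 groups, as was *Lrig1*, whereas *Erbb3* was highest in a different replicate in each group. Over all genes, 18 of 24 pairs of groups with the same number had deviations correlated at over 0.1, with a mean of 0.26 (-0.08 between different numbers). The labels do not say what a number stands for.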
